A study of Mus musculus with 8 samples.

Results

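The subject is a list of 10 genes that shape the nucleus and its chromatin: Ctcf, the cohesin genes Rad21, Smc1a, Smc3 and Stag2, the cohesin loader Nipbl, the lamina genes Lmnb1, Lmna and Lbr, and Satb1. They were chosen by name and mapped to their Ensembl IDs. All 10 were found among the 37620 gene IDs of the count tables, and all 10 were among the 15355 genes that had enough counts to be tested. RNA-seq after depletion of ribosomal RNA was run on erythroid progenitors, which give rise to red blood cells. C57BL/6 fetal livers at E14.5 were the source, and the sorted cells (magnetic sorting) were transduced and kept for 24 h with erythropoietin. The study asked what happens in these cells when Bloodlinc, a long noncoding RNA, is depleted or overexpressed, and when the nuclear RNA-binding protein hnRNP U is depleted.

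The 8 libraries formed 6 groups. Bloodlinc hairpins 1 and 2 (1 library each) were set against 1 control hairpin library of their own set. Likewise, hnRNPU hairpins 1 and 2 (1 library each) were set against the control hairpin library of the hnRNPU set. Cells with the Bloodlinc vector (1 library) were set against cells with the empty vector (1 library). The labels do not say that libraries came from separate cultures or embryos. The spread behind each p-value is that between hairpins 1 and 2 of these libraries, shared almost wholly over all genes tested. It is hardly a measure of the single gene, need not cover separate cultures or embryos, and may be in part technical. In bulk RNA fewer cells of a type and less RNA per cell cannot be told apart.

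CTCF binds DNA at specific sites and halts cohesin there, and cohesin is a ring of SMC1A, SMC3, RAD21 and a STAG subunit that extrudes loops of chromatin and holds sister chromatids together. NIPBL loads and drives the ring. Lamins and the lamin B receptor tether silent chromatin to the nuclear envelope, while SATB1 is a chromatin organiser best known from thymocytes. Red cell precursors condense and finally expel the nucleus, and their lamina is remodelled on the way.

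Counts in genes ranged between 2612916 and 34540691 per library. The 2 hnRNPU hairpin libraries stood apart before any gene was considered: they held 2931627 (hairpin 1) and 2612916 (hairpin 2) counts in genes, against at least 23682993 in each of the other 6 libraries. Uniquely placed counts outside genes made up 89.7% and 86.6% of the total there, while the other 6 libraries had 21.7% to 30.1%. IDs absent from the annotation took 32.9% and 23.1% of their gene counts, and at most 1.45% in the others. Mitochondrial ribosomal RNA still made up between 18.1% and 28.9% of gene counts in every library. All 12 erythroid marker genes were detected in every library, with summed levels between 23785 and 106843 CPM (gene counts scaled to a common library size) after TMM scaling, edgeR's correction for library composition, which is the scale of all levels below. Hepatocyte markers summed to between 0.351 and 12.2 CPM. As a check of the labels, Hnrnpu stood at 325 and 373 CPM with hnRNPU hairpins 1 and 2, against 588 CPM in their control (log2 fold change -0.75 with an SE of 0.58), which did not pass edgeR's quasi-likelihood test (adjusted p = 0.730). The Bloodlinc set, with no hnRNPU hairpin, had less Hnrnpu than both: 294 and 214 CPM with its hairpins and 290 CPM in its control. Bloodlinc stood at 2.19 and 1.75 CPM with its hairpins, against 4.46 CPM in their control (adjusted p = 1, edgeR), and at 5.46 CPM with the Bloodlinc vector, against 1.26 CPM with the empty vector.

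Of the 10 genes, 0 passed edgeR's quasi-likelihood test with Benjamini-Hochberg adjustment at 0.05 in the Bloodlinc knockdown, where 0.124% of all genes tested passed (0.0977% higher and 0.0261% lower). In the hnRNPU knockdown, too, 0 of 10 passed, where 0.879% of all genes tested passed (0.58% higher and 0.3% lower). At an unadjusted p under 0.05 the counts were 0 with Bloodlinc hairpins and 1 with hnRNPU hairpins (Lbr), where 3.99% and 9.89% of all genes tested were under it. DESeq2 also called 0 in each. Relative to the control library, 6 genes lay below it with both Bloodlinc hairpins, where 30.7% of all genes did so, and 8 genes lay below it with both hnRNPU hairpins, where 42.3% of all genes did so. The median log2 fold change of the 10 was -0.29 in the Bloodlinc knockdown and -0.67 in the hnRNPU knockdown, against 0.06 and -0.09 over all genes tested. In simulated data with these depths and spreads, 4.08% of genes changed 2-fold and 54.2% of genes changed 8-fold were recovered in the Bloodlinc comparison. In the hnRNPU comparison 4% and 36.7% were, so most changes of 2-fold would be missed here. The changed genes were drawn from all 15355 genes tested, at any level, so these rates need not be those of the 10 genes.

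Markers of other cell types were also read in the hnRNPU knockdown. Of 10 granulocyte markers 3 rose (Ltf, Ngp and Lcn2, edgeR), where 0.58% of all genes tested did so, and the median log2 fold change of the 10 was 2.11. The list was split: Mpo was at 0.37, Elane at 0.12, Prtn3 at 0.25 and Ctsg at 0.23, and the others were between 2.07 and 2.73. Macrophage markers summed to 1548 and 474 CPM with the hnRNPU hairpins, against 237 CPM in their control. Of these macrophage sums the single gene Lyz2 made up 1472, 443 and 216 CPM, and C1qa was at 0 in all 3 libraries. Csf1r had 44.9 and 13.0 CPM with the hairpins, against 12.5 CPM, and Adgre1 17.1 and 11.4 CPM, against 4.64 CPM. Of 9 macrophage markers tested 0 passed, with a median log2 fold change of 1.30. With both hairpins 5 lay above the control and 1 below it, where 28.6% and 42.3% of all genes tested did so. The part of other cells in the values of the architecture genes was not tested.

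**Figure D1:**
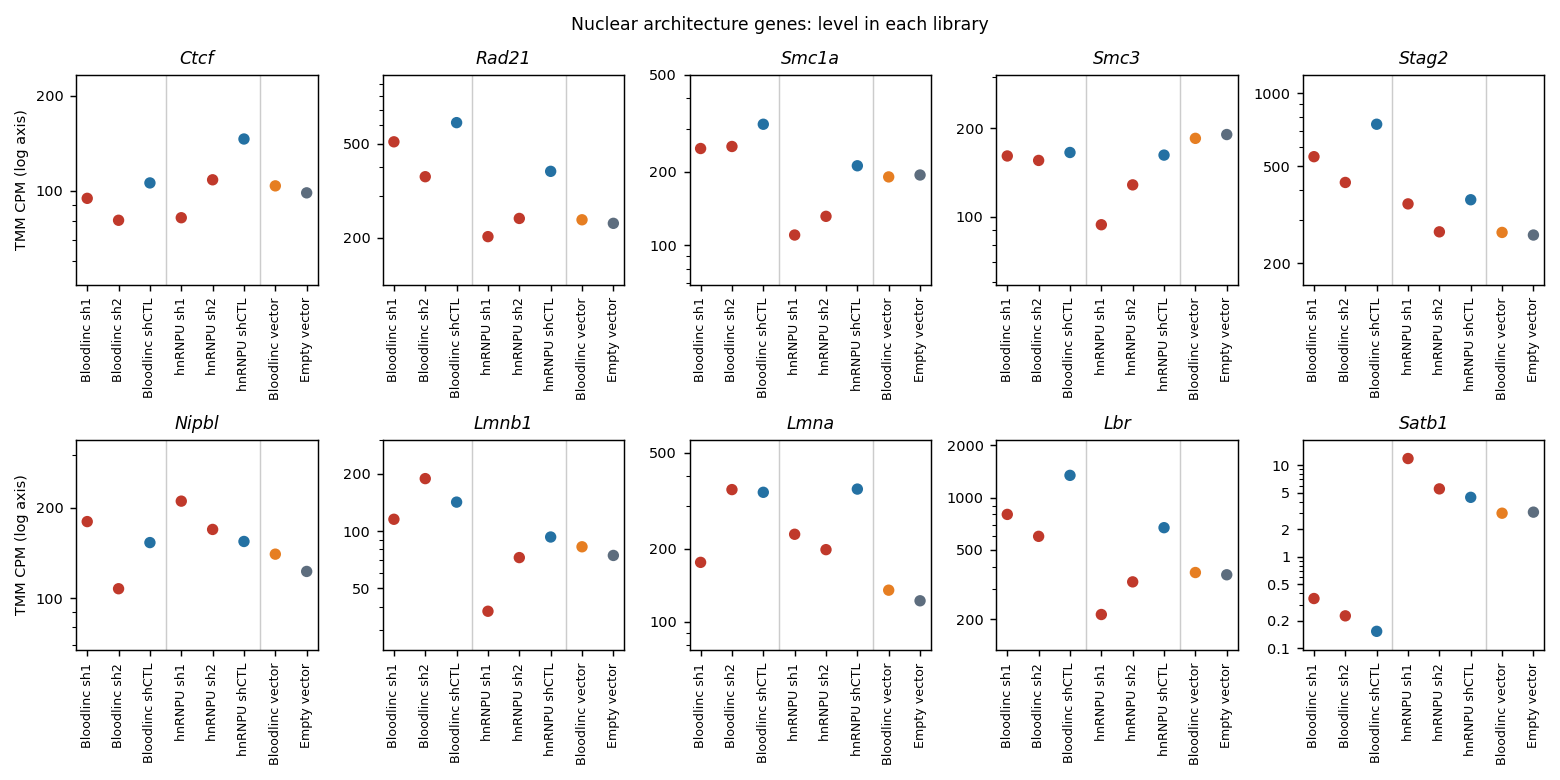
Level of each of the 10 genes in each library, as CPM after TMM scaling on a log axis; red points are Bloodlinc or hnRNPU hairpins (sh1, sh2), blue points their control hairpins (shCTL), the orange point the Bloodlinc vector and the grey point the empty vector. Both hnRNPU hairpin points lie below the hnRNPU control for 8 genes, and Satb1 is under 1 CPM in the 3 libraries of the Bloodlinc set alone.

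Ctcf encodes the insulator protein that anchors loops. Its promoter, shown because CTCF sets where cohesin stops, is given here on the + strand of GRCm38.p6 as chr8:105636288-105636587 (RefSeq), 250 bases before to 50 bases after the start. Capitals mark matches, on either strand, to GATAA (bound by GATA factors), CACCC (bound by KLF factors) or CCAAT (bound by NF-Y).
Ctcf: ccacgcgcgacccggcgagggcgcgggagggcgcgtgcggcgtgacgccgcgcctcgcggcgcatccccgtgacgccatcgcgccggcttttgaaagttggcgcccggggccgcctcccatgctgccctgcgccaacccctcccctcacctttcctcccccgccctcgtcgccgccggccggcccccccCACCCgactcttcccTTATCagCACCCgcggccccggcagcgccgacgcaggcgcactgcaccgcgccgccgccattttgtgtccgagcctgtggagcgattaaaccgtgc
This window holds 47 CpG dinucleotides, against a median of 7 and an upper quartile of 20 over all 32851 RefSeq promoters of this length. It has 1 GATAA, 2 CACCC and 0 CCAAT matches, and each of these words is common: 25.4% of all promoters hold GATAA, 57.5% hold CACCC and 37.4% hold CCAAT. A match describes the letters only and is not a binding site.

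Ctcf had 94.6 and 80.6 CPM with Bloodlinc hairpins 1 and 2, against 106 CPM in their control. With hnRNPU hairpins 1 and 2 it had 82.2 and 108 CPM, against 146 CPM in their control. Both hairpins lay below the control in each set, but the log2 fold changes of -0.27 (SE 0.54, adjusted p = 1, edgeR) and -0.61 (SE 0.54, adjusted p = 0.766, edgeR) did not pass. The 95% intervals ran between -1.33 and 0.79 for the Bloodlinc knockdown and between -1.67 and 0.44 for the hnRNPU knockdown, so that a 2-fold lower level is within both. Ctcf at chr8:105636568-105682922 (GRCm38, as all gene positions here) overlaps the antisense genes Agrp and Gm5915, and since the strand setting of the counting is not given, their reads cannot be told apart there.

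Of the cohesin ring, Rad21 (chr15:51962240-51991747), the kleisin that closes it, had 511 and 363 CPM with the Bloodlinc hairpins, against 616 CPM in their control. Rad21 had 202 and 241 CPM with the hnRNPU hairpins, against 383 CPM in their control. Every hairpin library lay below its own control, and Bloodlinc hairpin 1 was above the control of the hnRNPU set. The log2 fold changes were -0.50 (SE 0.58, adjusted p = 1, edgeR) in the Bloodlinc knockdown and -0.79 (SE 0.58, adjusted p = 0.709, edgeR) in the hnRNPU knockdown, with 95% intervals of -1.63 to 0.64 and of -1.92 to 0.35.

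Smc1a (chrX:152016428-152062694), an ATPase subunit of the ring, had 249 and 254 CPM with the Bloodlinc hairpins, against 313 CPM in their control, and 110 and 131 CPM with the hnRNPU hairpins, against 212 CPM in theirs. Its hairpin pairs were close together, within 1.02-fold for Bloodlinc and 1.19-fold for hnRNPU. Smc3 (chr19:53600398-53645833), its partner ATPase, had 161 and 156 CPM with the Bloodlinc hairpins, against 165 CPM in their control, and 94.0 and 128 CPM with the hnRNPU hairpins, against 162 CPM in theirs. The log2 fold changes were -0.32 (SE 0.56) for Smc1a and -0.06 (SE 0.56) for Smc3 in the Bloodlinc knockdown, and -0.81 (SE 0.56, adjusted p = 0.690) and -0.54 (SE 0.55, adjusted p = 0.809) in the hnRNPU knockdown by the same edgeR test. Smc1a overlaps the antisense gene Gm15267.

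Stag2 (chrX:42149317-42277185), the STAG subunit that predominated here, had 548 and 429 CPM with the Bloodlinc hairpins, against 744 CPM in their control. With the hnRNPU hairpins it had 350.5 and 269 CPM, against 364 CPM in their control. All 4 hairpin libraries lay below their controls, by log2 fold changes of -0.61 (SE 0.58) and -0.24 (SE 0.59) that did not pass (adjusted p = 1 and 0.927, edgeR), with 95% intervals of -1.75 to 0.54 and of -1.40 to 0.93. Per kb of exon, Stag2 exceeded its paralog Stag1 in each of the 8 libraries: the ratio was 5.92 and 6.65 with the Bloodlinc hairpins against 6.01 in their control, 6.92 and 5.15 with the hnRNPU hairpins against 4.90 in theirs, and 3.94 with the Bloodlinc vector against 4.24 with the empty vector. Tested against the control hairpin library of the hnRNPU set in place of their own, the Bloodlinc hairpins gave 0.19 for Rad21, 0.25 for Smc1a and 0.42 for Stag2 (log2), the opposite direction.

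Nipbl, the loader (chr15:8290617-8444463), had 179.9 and 107.5 CPM with the Bloodlinc hairpins, either side of the 153 CPM in their control. With the hnRNPU hairpins it had 210.4 and 169 CPM, both above the 154 CPM in their control, as did 28.6% of all genes tested. The log2 fold changes of -0.09 (SE 0.56, adjusted p = 1, edgeR) and 0.30 (SE 0.57, adjusted p = 0.903, edgeR) did not pass, and the 95% interval in the hnRNPU knockdown ran between -0.82 and 1.41. Set against Wapl, which releases cohesin from chromatin, Nipbl per kb was 0.177 and 0.105 of Wapl with the Bloodlinc hairpins against 0.115 in their control, and 0.303 and 0.294 with the hnRNPU hairpins against 0.228 in theirs.

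**Figure D2:**
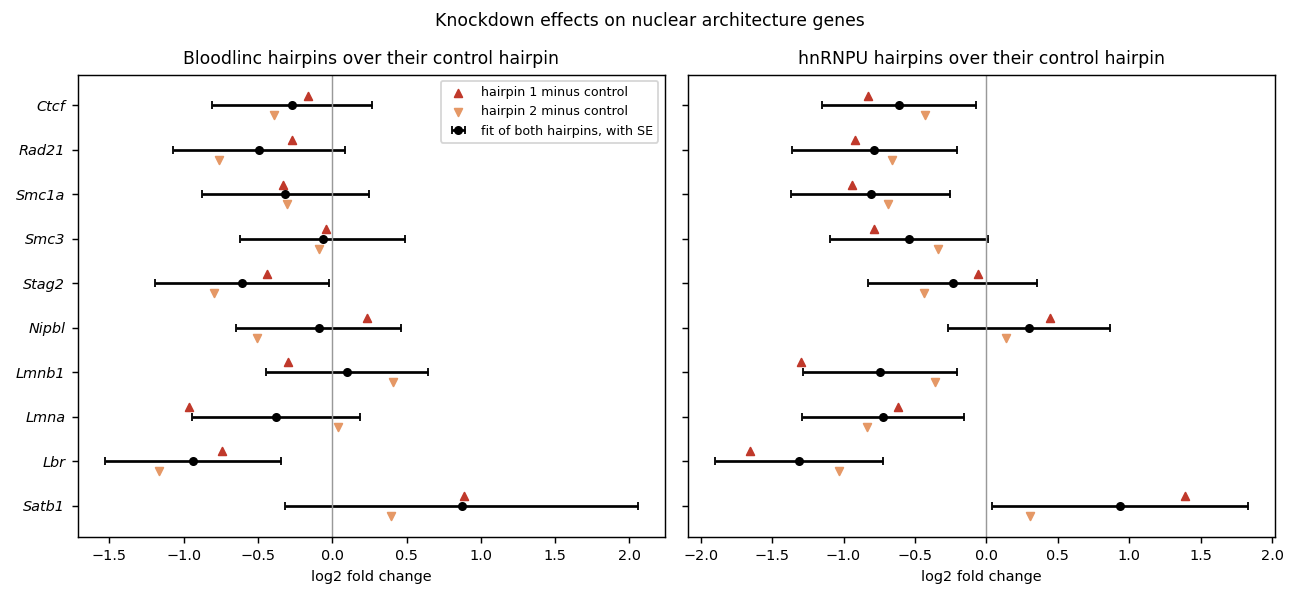
Log2 fold change of each gene in the Bloodlinc knockdown (left) and the hnRNPU knockdown (right); black points with bars are the fit of both hairpins over their control hairpin with its SE, and triangles are each hairpin library minus the control library. In the hnRNPU panel 8 genes lie left of 0 with both triangles and Nipbl and Satb1 lie right of it; none of the 10 passed the adjusted test in either panel.

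Among the lamina genes, Lbr encodes the lamin B receptor, an inner membrane protein that ties heterochromatin to the envelope and is also a sterol reductase. Its promoter is shown because Lbr was the most abundant of the 10 and had the lowest log2 fold change in each knockdown; it is on the - strand at chr1:181842352-181842651 (GRCm38.p6, RefSeq), marked as for Ctcf.
Lbr: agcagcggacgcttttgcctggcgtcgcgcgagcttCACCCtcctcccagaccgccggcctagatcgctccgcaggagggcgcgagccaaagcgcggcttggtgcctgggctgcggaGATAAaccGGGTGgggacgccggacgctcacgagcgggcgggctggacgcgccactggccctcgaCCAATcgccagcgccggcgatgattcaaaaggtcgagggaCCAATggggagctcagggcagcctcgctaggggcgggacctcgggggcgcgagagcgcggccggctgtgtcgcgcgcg
It holds 42 CpG dinucleotides, 1 GATAA, 2 CACCC and 2 CCAAT matches. Lbr had 800.3 and 599 CPM with the Bloodlinc hairpins, against 1342 CPM in their control. With the hnRNPU hairpins it had 213 and 328 CPM, against 671 CPM in their control. Both hairpins of each set were well below their control without reaching the adjusted threshold: it was at -0.94 on the log2 scale (SE 0.59, 95% interval -2.10 to 0.22, adjusted p = 1, edgeR) in the Bloodlinc knockdown and -1.31 (SE 0.59, 95% interval -2.47 to -0.15, adjusted p = 0.424, edgeR) in the hnRNPU knockdown. Lbr overlaps Gm26004 and, on the other strand, Dnah14.

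The level of Lbr in the controls was 1342 CPM in the control hairpin library of the Bloodlinc set, 671 CPM in that of the hnRNPU set and 360.0 CPM with the empty vector, a 3.73-fold range over libraries with neither a targeting hairpin nor the Bloodlinc vector, or 2.34-fold when scaled by total gene counts. When each set was tested against the other set's control hairpin library, Lbr was at 0.06 (log2, adjusted p = 0.980) with the Bloodlinc hairpins and at -2.31 (adjusted p = 0.00178) with the hnRNPU hairpins, both by edgeR, in tests that 6.79% and 15.2% of all genes passed. The direction in the Bloodlinc set and the call in the hnRNPU set therefore rest on the choice of control library.

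Lmna (chr3:88480147-88509956), which encodes A-type lamins, had 176 and 352 CPM with the Bloodlinc hairpins, against 343 CPM in their control, so hairpin 1 lay well below hairpin 2 and the control. In the hnRNPU set Lmna with the hairpins had 229.9 and 198.5 CPM, both below the 354 CPM in their control. Lmnb1, which encodes lamin B1, had 115 and 189 CPM with the Bloodlinc hairpins, on either side of the 142 CPM in their control. In the hnRNPU set Lmnb1 had 37.8 and 72.5 CPM with the hairpins, both below the 93.0 CPM in their control. The log2 fold changes of Lmna were -0.38 (SE 0.57) and -0.72 (SE 0.56), and those of Lmnb1 0.10 (SE 0.55) and -0.75 (SE 0.54), the Bloodlinc knockdown first, and 0 of these passed edgeR's test (smallest adjusted p = 0.706). Without hairpin 1 the Bloodlinc value of Lmna was 0.06, and without hairpin 2 that of Lmnb1 was -0.30.

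Ratios of 2 genes within a library need no scaling between libraries. Lbr over Lmna, per kb of exon, was 5.58 and 2.08 with the Bloodlinc hairpins, against 4.79 in their control, 1.13 and 2.02 with the hnRNPU hairpins, against 2.33 in theirs, and 3.37 with the Bloodlinc vector, against 3.62 with the empty vector. Lmnb1 over Lmna was 1.29 and 1.06 with the Bloodlinc hairpins, against 0.815 in their control, and 0.324 and 0.720 with the hnRNPU hairpins, against 0.518 in theirs. The hairpins of one target thus sat on opposite sides of the control in the hnRNPU set for the B-type to A-type ratio. Smc1a over Smc3, for which the complex takes one of each, was 1.49 and 1.57 with the Bloodlinc hairpins against 1.82 in their control, 1.12 and 0.981 with the hnRNPU hairpins against 1.25 in theirs, and 0.989 with the Bloodlinc vector against 0.978 with the empty vector. The control libraries alone ranged between 0.978 and 1.82 for it, so this ratio too differed between the sets. Rad21 over Smc3 was 4.15 and 3.06 with the Bloodlinc hairpins against 4.87 in their control, 2.82 and 2.46 with the hnRNPU hairpins against 3.09 in theirs, and 1.69 with the Bloodlinc vector against 1.58 with the empty vector.

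**Figure D3:**
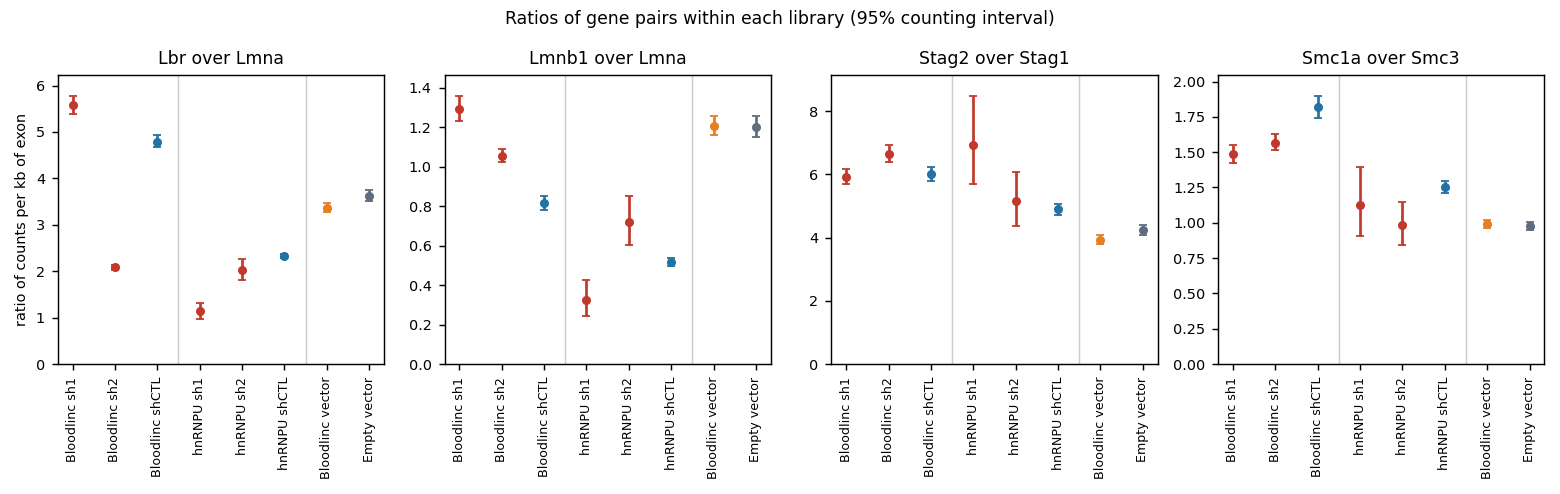
Ratio of counts per kb of exon of 2 genes within each library, with a 95% interval that covers counting error only; red is Bloodlinc or hnRNPU hairpins, blue their control hairpins, orange the Bloodlinc vector and grey the empty vector. Lbr over Lmna spans 1.13 to 5.58, and Stag2 exceeds Stag1 in all 8 libraries.

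Satb1 was far below the other 9 genes. Its CpG-rich start is shown because this gene separated the library sets: the 300 bases at chr17:51832598-51832897, - strand (GRCm38.p6, RefSeq), hold 45 CpG dinucleotides and none of the motif words searched in the Ctcf promoter.
Satb1: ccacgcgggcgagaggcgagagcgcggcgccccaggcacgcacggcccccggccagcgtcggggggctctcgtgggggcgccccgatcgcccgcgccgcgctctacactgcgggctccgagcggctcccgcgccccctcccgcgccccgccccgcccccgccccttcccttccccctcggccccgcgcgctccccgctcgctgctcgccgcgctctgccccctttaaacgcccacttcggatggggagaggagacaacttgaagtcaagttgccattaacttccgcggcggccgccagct
RefSeq lists 5 starts for Satb1, and the counts do not say which was used. Each of the other starts holds between 1 and 3 CACCC matches, and that at chr17:51833241-51833540 also holds CCAAT. Satb1 had 0.351 and 0.227 CPM with the Bloodlinc hairpins, against 0.154 CPM in their control, from 8, 7 and 3 counts. With the hnRNPU hairpins it had 11.8 and 5.52 CPM, against 4.46 CPM in their control, from 20, 14 and 170 counts. Both hairpins were above the control in each set, as were 31.5% of all genes tested in the Bloodlinc set. The log2 fold changes were 0.87 (SE 1.19, adjusted p = 1, edgeR) and 0.94 (SE 0.89, adjusted p = 0.797, edgeR), and the ratio of Bloodlinc hairpin 1 to its control (2.28) had a 95% counting interval of 0.547 to 13.3. With the other set's control hairpin library, Satb1 was at -3.94 with the Bloodlinc hairpins (adjusted p = 0.000383) and at 5.75 with the hnRNPU hairpins (adjusted p = 0.00018), both by edgeR.

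The larger difference lay between the sets. The control hairpin library of the hnRNPU set had 29.0 times the Satb1 of the control hairpin library of the Bloodlinc set (95% counting interval 9.76 to 142), and the empty vector library had 20.0 times as much (6.68 to 98.2), with no replicate of any of these controls. The highest Satb1 level of the 3 Bloodlinc-set libraries was 8.53-fold below the lowest of the other 5, and 3.24% of all genes tested had such a gap of at least 4-fold. Of the other 9 architecture genes, 0 were 4-fold lower in the Bloodlinc set and 0 of 10 were 4-fold higher there, where 0.716% of all genes tested were. The granulocyte markers shared this gap between the sets with Satb1: 10 of 10 were at least 4-fold lower in the Bloodlinc set. Their summed level was 43.2 and 54.6 CPM with the Bloodlinc hairpins, against 104 CPM in their control. It was 9855 and 3628 CPM with the hnRNPU hairpins, against 1698 CPM in theirs, and 990 CPM with the Bloodlinc vector, against 1031 CPM with the empty vector. Within the Bloodlinc set 9 of the 10 lay below the control with both hairpins, as did 30.7% of all genes tested, whereas Satb1 lay above it. None of the 10 granulocyte markers was at 0 in any library. Such a gap was found for 3 of 8 stem and progenitor, 1 of 5 lymphoid and 1 of 4 hepatocyte markers, and for 0 of 12 erythroid, 0 of 9 macrophage, 0 of 7 megakaryocyte and 0 of 5 mast cell markers. The lymphoid gene Rag2 was at 0 in the Bloodlinc set and at 0.0787 CPM in the hnRNPU control. The hepatocyte gene Trf had at most 0.0513 CPM in the Bloodlinc set. Both were under the floor of 3 counts in that set, so these gaps are not measured. The 10 markers of lymphoid cells, in which Satb1 is best known, summed to between 1.83 and 7.97 CPM, and they differed among themselves. Cd3e was at 0 in all 6 hairpin-set libraries. Il7r had 5.32 and 1.18 CPM with the hnRNPU hairpins, against 0.498 CPM in their control. Lck had 6.41 CPM in the control hairpin library of the Bloodlinc set and 2.05 CPM in that of the hnRNPU set. The part that these other cell types had in the level of Satb1 was not tested.

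**Figure D4:**
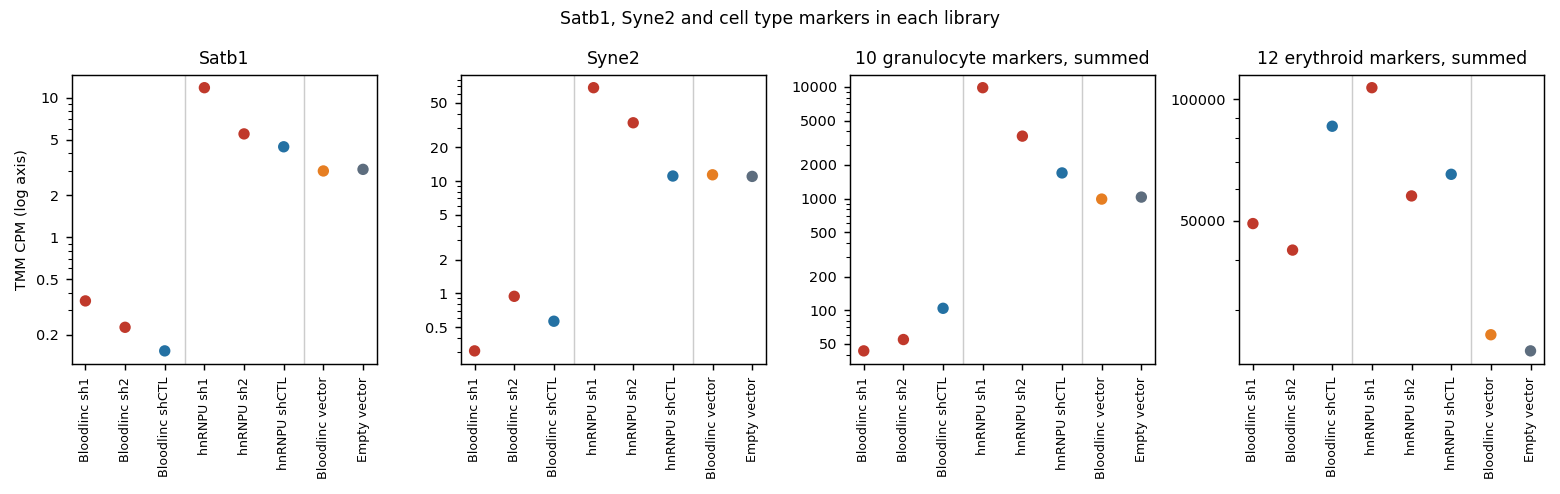
Satb1, Syne2, 10 granulocyte markers and 12 erythroid markers (both summed) in each library, as CPM after TMM scaling on a log axis; red is Bloodlinc or hnRNPU hairpins, blue their control hairpins, orange the Bloodlinc vector and grey the empty vector. Satb1, Syne2 and the granulocyte sum are lower in the 3 libraries of the Bloodlinc set than in the other 5, while the erythroid sum is not.

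The difference between the hnRNPU and Bloodlinc knockdown effects was tested in the same fit, and 0 of 10 genes passed (edgeR, adjusted p = 0.9999 for each), where 0.326% of all genes tested passed. At an unadjusted p under 0.05 the count was 0, where 4.11% of all genes tested were under it, and DESeq2 called 0. The difference with the lowest estimate, that of Lmnb1, was -0.85 on the log2 scale (SE 0.78), and that of Lbr was -0.37 (SE 0.86).

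With the Bloodlinc vector set against the empty vector, with 1 library each and so no replicate check, 0 of 10 genes were past 2-fold, where 5.28% of all genes tested were. Nipbl had 140.1 CPM with the Bloodlinc vector, against 123 CPM with the empty vector, a log2 ratio of 0.19 (95% counting interval 0.14 to 0.24). Lmnb1 had 82.6 CPM with the Bloodlinc vector, against 74.4 CPM with the empty vector (0.15), and Lmna had 135 CPM with the Bloodlinc vector, against 122 CPM with the empty vector (0.15). The other 7 had log2 ratios between -0.04 and 0.07, and the median absolute log2 ratio of the 10 was 0.0466, against 0.126 over 15253 genes. Those were all genes tested with counts in both libraries, at any level, so these medians are not matched for abundance. Lbr had 371 CPM with the Bloodlinc vector, against 360.0 CPM with the empty vector, and Ctcf had 104 CPM with the Bloodlinc vector, against 98.5 CPM with the empty vector.

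Levels compared between genes are per kb of exon. Over the 3 control libraries Lbr averaged 166 ± 105 CPM per kb (SD, n = 3), Rad21 96.8 ± 45.9, Stag2 55.2 ± 30.8, Lmna 46.8 ± 22.4 and Smc1a 41.5 ± 11.2. Next came Lmnb1 at 34.8 ± 11.8, Smc3 at 31.2 ± 2.79, Ctcf at 24.0 ± 5.24, Nipbl at 15.2 ± 1.90 and Satb1 at 0.135 ± 0.116 CPM per kb. The gap between neighbours in this order was larger than the larger of their SDs for Smc3 over Ctcf, Ctcf over Nipbl and Nipbl over Satb1. Within libraries, Rad21 exceeded Stag2 and Nipbl exceeded Satb1 in 8 of 8, whereas Smc3 exceeded Ctcf in 2 of the 3 controls. Lbr was first in 7 of 8 libraries, the exception being hnRNPU hairpin 1, where Rad21 had 47.8 and Lbr 44.7 CPM per kb. The highest control library exceeded the lowest 29.0-fold for Satb1, 3.73-fold for Lbr, 2.90-fold for Lmna, 2.85-fold for Stag2 and 2.68-fold for Rad21, and 1.17-fold for Smc3 and 1.26-fold for Nipbl. This order rests on the scaling: with total gene counts in place of TMM the ratios were 1.83 for Smc3, 1.79 for Stag2, 1.68 for Rad21, 1.39 for Nipbl, 2.34 for Lbr and 39.8 for Satb1. Over the 8633 genes of at least 5 CPM the median of this ratio was 1.95 with TMM.

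Likeness of pattern was measured as Pearson's r of log2 levels over the 8 libraries, which differ in depth and in library set, among 8328 protein-coding genes, and is a description. Closest to Rad21 were Donson, a replication fork gene (0.996), and Tfrc, the transferrin receptor (0.995). Closest to Lbr were Miip (0.997) and Parpbp (0.996), and closest to Satb1 were Cebpe, a granulocyte transcription factor (0.997), and Rassf2 (0.996). Ctcf was closest to the histone genes Hist1h1b (0.984) and Hist1h2ak (0.983), Smc1a to Mif4gd (0.994) and Cenph (0.993), and Smc3 to Mrpl35 (0.994) and Wdr70 (0.993). Stag2 was closest to Fkbp8 and Rpl34 (0.987 each), Nipbl to Ccdc92b (0.965) and Rc3h1 (0.962), Lmnb1 to Dera (0.993) and Pih1d1 (0.989), and Lmna to Slc23a1 (0.970) and Ank (0.966). Within the group, Rad21 went most closely with Lbr (0.976) and Stag2 (0.906), and Lmnb1 (-0.902) and Smc1a (-0.894) ran opposite to Satb1.

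Other genes of the same complexes were counted from lists. Of 15 other cohesin subunits and regulators tested, 14 loop partners and DNA-binding factors, 8 condensin subunits and 19 other lamina and envelope genes, 0 passed edgeR's test in either knockdown, and DESeq2 called 0. Of all genes tested, 0.124% passed edgeR's test in the Bloodlinc knockdown and 0.879% in the hnRNPU knockdown, so 0 is near that share. At an unadjusted p under 0.05 the 4 lists together had 2 genes in the Bloodlinc knockdown and 15 in the hnRNPU knockdown, out of 56, beside 3.99% and 9.89% of all genes tested. Against the other set's control hairpin library, 4 and 17 of them passed, beside 6.79% and 15.2% of all genes tested. The condensin subunits, which compact mitotic chromosomes, had the lowest medians: -0.57 in the Bloodlinc knockdown and -1.15 in the hnRNPU knockdown, and all 8 lay below the control with both hairpins in each, as did 30.7% and 42.3% of all genes tested. Beside the hnRNPU set's control hairpin library, both Bloodlinc hairpins were higher for Ncapg (507 and 312 against 218 CPM), Ncapg2 and Ncaph2. Both were lower for Ncapd2 (221 and 251 against 365 CPM) and Smc2, and Smc4, Ncaph and Ncapd3 were split. Smc2 had 433 and 389 CPM with the Bloodlinc hairpins, against 909 CPM in their control, and 168 and 230 CPM with the hnRNPU hairpins, against 468 CPM in theirs. Its log2 fold changes were -1.14 and -1.23. Those of Smc4 were -0.83 and -0.81, and those of Ncapg2 -0.44 and -1.32. The erythroid marker median was -0.85 in the Bloodlinc knockdown and 0.00 in the hnRNPU knockdown, and 0 of these 12 genes passed in either. The hnRNPU median hides a split list, with 6 of 12 genes below 0. Epor was at -1.76, Klf1 at -1.57 and Tfrc at -1.38, whereas Hba-a1 was at 0.92, Alas2 at 0.82 and Hba-a2 at 0.65.

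The other cohesin list had medians of -0.22 in the Bloodlinc knockdown, or -0.26 without Ctcfl, which had 0 counts in the control library, and -0.09 in the hnRNPU knockdown. Wapl had log2 fold changes of -0.38 and -0.09, Pds5a, which holds cohesin and WAPL together, -0.56 and -0.75, and the cohesin acetyltransferase gene Esco2 -0.91 and -0.77. Loop partners had medians of -0.24 and -0.50, with Cbx5 (heterochromatin protein HP1 alpha) at -0.52 and -1.18, Hmgb1 at -0.57 and -1.08 and Matr3 at -0.40 and -0.59. The other lamina and envelope genes had medians of 0.01 and -0.18. Tmpo, which encodes the lamina-associated LAP2 proteins, had 698 and 571 CPM with the Bloodlinc hairpins, against 1217 CPM in their control, and 163 and 261 CPM with the hnRNPU hairpins, against 529 CPM in theirs, log2 fold changes of -0.94 and -1.32. Tor1aip2 was at -0.52 and 0.42 and Sun1 at 0.09 and -0.53.

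Syne2, which encodes the envelope protein nesprin-2, had the smallest adjusted p of these lists. It had 68.0 and 33.1 CPM with the hnRNPU hairpins, against 11.1 CPM in their control, which did not pass (log2 fold change 2.18 with an SE of 0.68, edgeR's adjusted p = 0.104). With DESeq2's size factors in the same edgeR test it was 2.34 (adjusted p = 0.0445), and in a fit of the 3 libraries of that set alone 2.35 (adjusted p = 0.0337). In the Bloodlinc set it had 0.307 and 0.940 CPM with the hairpins, against 0.564 CPM in their control, so it was low in that set as Satb1 was. Of the other listed genes, Ctcfl and Hmga1 (4.31-fold) also had a gap of at least 4-fold there, and the granulocyte sums given above were low there too. Ctcfl was at 0.0438 CPM with Bloodlinc hairpin 1 and at 0 with hairpin 2 and in their control. These values are under the floor of 3 counts, so the size of its gap is not measured.

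**Figure D5:**
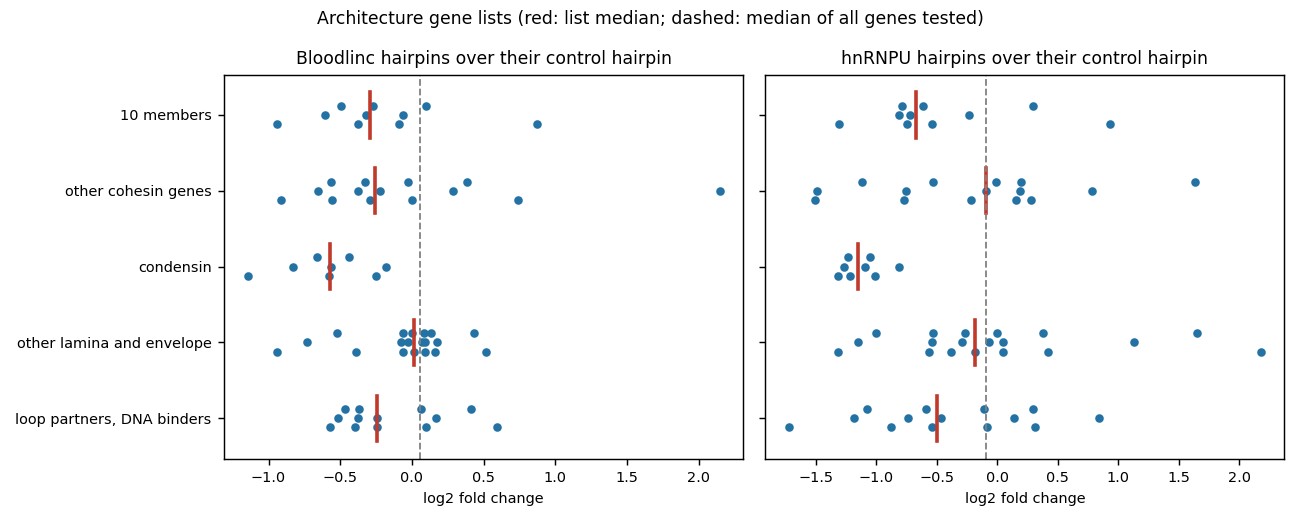
Log2 fold change of each gene of 5 architecture lists in the Bloodlinc knockdown (left) and the hnRNPU knockdown (right); each point is a gene, red bars are list medians and dashed lines the median of all genes tested. Genes with 0 counts in the control library are left out; all 8 condensin genes lie left of 0 in both panels.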

How the data were processed

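Per the labels, rRNA-depleted total RNA was made into strand-specific libraries. Alignment used TopHat2 2.0.11 on mm9 and gene counting used HTSeq, per the submitters' processing notes. The HTSeq version, strand option and annotation are not given in the sources used here. The authors deposited raw counts per gene for each library (37620 IDs and 5 summary entries), with no normalization. GENCODE M21 on GRCm38 gave symbols for 87.4% of IDs; positions are on GRCm38 and played no part in counting. Promoters came from RefSeq (GRCm38.p6); 6 of the 10 genes matched.

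All 8 libraries entered a single edgeR 4.0.16 fit (R 4.3.3) with 6 groups, TMM scaling, filterByExpr (15355 genes) and quasi-likelihood F-tests, adjusted by Benjamini-Hochberg over all genes at a threshold of 0.05. The hairpin pairs gave the only residual degrees of freedom (2), each single control library being assumed to vary like them. The common dispersion was 0.145 and the prior degrees of freedom 397. Log2 levels of single libraries used a prior count of 2. Depth ranged between 2612916 and 34540691 gene counts; intervals of single-library ratios cover counting error only, those of knockdown fold changes are from the fit's SE, and 3 counts was the floor. The fit was tested on simulated data. The genes and lists were chosen with earlier results of these data known. All 10 genes were named, with every other listed gene that passed, the 3 most abundant per list and the 2 genes most like each member. Alternatives were DESeq2 1.42.0, its size factors, other filters and controls, thinning to equal total gene counts and leaving libraries out. The 2 hnRNPU hairpin libraries left out together and the listed genes under each setting were added after the data were seen. One listed envelope gene, Syne1, had no match.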

Additional observations from a re-analysis of the deposited data

Results flagged for a closer look

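The share of uniquely placed counts outside genes was 89.7% with hnRNPU hairpin 1 and 86.6% with hnRNPU hairpin 2, against 21.8% in their control hairpin library. Every hnRNPU result on the architecture genes rests on these 2 libraries, and the part that this share had in those results was not tested. For Satb1 these libraries held 20 and 14 counts.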

How the results depend on the processing

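Over the 10 genes, 350 of 369 recomputed values kept their direction and their side of the threshold, 16 changed direction and 3 (1 of those 16) came to pass it; the Bloodlinc value of Satb1 was 0 after thinning. With the other set's control hairpin library, the Bloodlinc log2 fold changes were 0.19 for Rad21, 0.25 for Smc1a, 0.42 for Stag2, 0.059 for Lbr and -3.94 for Satb1 (adjusted p = 0.000383, edgeR), which made 1 architecture gene called there and 2 in the hnRNPU knockdown (Lbr at -2.31, Satb1 at 5.75), where 6.79% and 15.2% of all genes were called. Of the other lists 4 genes were called in the Bloodlinc and 17 in the hnRNPU knockdown with that control, and 1 (Syne2) in the hnRNPU knockdown with DESeq2's size factors or with the 3 libraries of the set alone. With the 3 controls as one group the Bloodlinc values were 0.093 for Rad21, 0.070 for Smc1a, 0.10 for Stag2, 0.0024 for Nipbl and -3.15 for Satb1. Leaving out single hairpin libraries gave ranges in the Bloodlinc knockdown of -0.96 to 0.061 for Lmna, -0.49 to 0.23 for Nipbl and -0.30 to 0.44 for Lmnb1, and in the difference of the knockdowns of -0.81 to 0.25 for Lmna and -0.60 to 0.53 for Satb1. The cause was not tested.

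The median ratio of the highest to the lowest control was 2.29 with TMM, 2.27 with DESeq2's size factors and 1.81 with total gene counts. Genes called among all tested were 19 in the Bloodlinc knockdown, 135 in the hnRNPU knockdown and 50 in their difference; DESeq2 gave 5, 100 and 22, robust estimation 5, 65 and 23, and thinning to equal total gene counts 0 in each. Against the other control hairpin library, 1043 and 2340 genes were called. DESeq2's size factors raised the hnRNPU median of all genes by 0.12 (log2). No paired analysis was possible because each knockdown has a single control library, so the groups compared share fewer than 2 replicate numbers. Depth limits Satb1 in the 2 hnRNPU hairpin libraries (20 and 14 counts), while its 3 to 8 counts in the Bloodlinc set came at depths near those of the other libraries.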
